A study of Mus musculus with 108 samples.

Results

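The Cyp4a genes encode cytochrome P450 enzymes that hydroxylate fatty acids at the far, omega end of the chain. The genes described here are Cyp4a10, Cyp4a14, Cyp4a31, Cyp4a32, Cyp4a12a and Cyp4a12b, taken by their symbols as 6 of the 55416 genes in a table of read counts from mouse tissues. They had been singled out because earlier results on the same libraries showed a difference between genotypes in liver, so that difference is described here, no p is given for it and nothing is read from which of its values were called. The RNA came from liver, from kidney and from white adipose tissue, abbreviated WAT. The mice were C57BL/J males, 8 to 12 weeks old, kept with 12 h of light a day and free food and water. Each mouse carried 1 of 2 genotypes, Bmal1-flox or Bmal1-iKO, called flox and iKO from here on, and tissue was collected at zeitgeber time (ZT, hours from lights on) 2, 6, 10, 14, 18 or 22. Every tissue, genotype and time had 3 libraries, 36 per tissue, and a library held between 13875600 and 24414800 counts (rounded). The title names the clock of the intestine as the subject, but neither the cells in which Bmal1 was deleted nor the driver of the deletion is named in the labels, and no agent other than the genotype is given. They also do not say that the 3 libraries of a group came from separate mice, and where they did not, p-values measure no more than how these samples spread, and that spread may be technical.

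Omega-hydroxylation starts a side route of fatty acid breakdown: the hydroxylated fatty acid is oxidised further to a dicarboxylic acid, which peroxisomes then shorten. In mouse liver, Cyp4a10 and Cyp4a14 are classical targets of PPAR alpha, the nuclear receptor that fatty acids and fibrate drugs activate and that drives fat oxidation in fasting. Cyp4a12a is known as an enzyme of male mice that depends on androgen in kidney and also makes 20-HETE, a vasoactive product of arachidonic acid. Cyp4a12b is its near copy, and Cyp4a31 and Cyp4a32 are close relatives of Cyp4a10 whose substrates are less well studied.

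All 6 genes lie in 1 cluster of 322557 bases on mouse chromosome 4, which also holds Cyp4a30b and has 13 annotated genes inside it. Cyp4a29 lies just before the cluster, at 115242084 to 115254557. In GRCm38 with the GENCODE M21 annotation, Cyp4a12a (ENSMUSG00000066071) lies at 115299046 to 115332815 and Cyp4a12b (ENSMUSG00000078597) at 115411624 to 115439034. Cyp4a14 (ENSMUSG00000028715) lies at 115486200 to 115496142 on the minus strand, while the other 5 are on the plus strand. Cyp4a10 (ENSMUSG00000066072) lies at 115518264 to 115533649, Cyp4a31 (ENSMUSG00000028712) at 115563649 to 115579015 and Cyp4a32 (ENSMUSG00000063929) at 115600969 to 115621602. Cyp4a10 has 13 exons and each of the others has 12. Counts were made per gene, over all of its exons.

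Reads from near-identical copies may be shared, so how far these genes can be told apart bears on every value. The 60-base stretches shown next come from the coding sequence of the GENCODE M21 transcripts and are, for each set, the ungapped stretch with the most differences, printed because a read over it can be told from a read of a near copy. They differ more than the sequences as a whole. The first 4 are aligned with each other and the last 2 with each other, and capitals mark the bases that differ from Cyp4a10 in the first set and from Cyp4a12a in the second.
Cyp4a10: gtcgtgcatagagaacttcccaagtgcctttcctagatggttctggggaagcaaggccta
Cyp4a31: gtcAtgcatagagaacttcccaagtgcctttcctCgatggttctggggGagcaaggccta
Cyp4a32: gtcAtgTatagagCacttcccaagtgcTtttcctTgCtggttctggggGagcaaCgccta
Cyp4a14: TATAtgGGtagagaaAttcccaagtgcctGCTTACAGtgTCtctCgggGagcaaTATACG
Cyp4a12a: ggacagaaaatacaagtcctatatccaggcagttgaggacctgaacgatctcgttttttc
Cyp4a12b: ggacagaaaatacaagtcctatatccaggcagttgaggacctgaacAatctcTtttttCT

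In these stretches Cyp4a31 differs from Cyp4a10 at 3 bases, Cyp4a32 at 8 and Cyp4a14 at 25, and Cyp4a12b differs from Cyp4a12a at 4. Over the whole coding sequence, Cyp4a10 was 96.6% identical to Cyp4a31 and 97.2% identical to Cyp4a32, and Cyp4a12a was 98.5% identical to Cyp4a12b, with 23 differing bases of 1524. Cyp4a14 stood further off, at 75.1% identity to Cyp4a10. Stretches of 150 bases, the length of 1 read, were also taken from the transcript of each gene with the longest coding sequence, untranslated ends included. They were searched in the transcripts of the other genes of the 6 and of Cyp4a29 and Cyp4a30b. Stretches found unchanged in another gene made up 4.34% of those in Cyp4a10, 4.19% in Cyp4a31 and 7.97% in Cyp4a32. They made up 25.6% in Cyp4a12a and 25.9% in Cyp4a12b, and none in Cyp4a14. How the counting treated reads with more than 1 match is not given in the sources used here. The division of counts within the Cyp4a10, Cyp4a31 and Cyp4a32 trio and within the Cyp4a12 pair is therefore uncertain. Sums are given as well for the trio, while for the pair only the share of Cyp4a12a in its kidney sum is given. The Cyp4a14 counts carry the least of this uncertainty. A RefSeq promoter window of 300 bases (GRCm38.p6) was at hand for Cyp4a32 alone of the 6. It held none of the 4 motifs searched on both strands, which were a direct repeat of AGGTCA with 1 base between (up to 2 mismatches, in 3.86% of 32851 windows), AGGTCA itself (16.3%), the E-box CACGTG (7.15%) and the D-box TTATGTAA (0.938%), and the first of these motifs contains the second.

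Some libraries stood apart from their groups, and this touches the Cyp4a genes. In 11 liver libraries the mean log2 CPM (counts scaled to the library total) over a list of cell cycle genes was 3.25 to 3.94, while the remaining 25 had −1.12 to 0.36. The 11 comprise flox ZT6 1 and ZT22 1, and iKO ZT6 1 and 2, ZT14 1 and 2, ZT18 1 and 2 and ZT22 1, 2 and 3, so 9 of them were iKO. Their list means averaged 8.04 against 3.89 for macrophage markers, 6.58 against 3.03 for interferon-stimulated genes and 3.61 against 7.59 for male-biased liver genes, while hepatocyte markers were at 11.96 against 12.12. The liver libraries labelled iKO ZT18 1 and iKO ZT22 3, which are among the 11, held Xist, an RNA of female cells, at 374 and 420 CPM, against at most 0.411 CPM in the other 34, and no Ddx3y, a Y-linked gene, although every mouse is labelled male. Their kidney libraries held Xist at 211 and 305 CPM and Ddx3y at 0.0502 and 0 CPM. In WAT, iKO ZT18 1 held Xist at 499.6 CPM and no Ddx3y, but iKO ZT22 3 held Xist at 13.5 and Ddx3y at 58.5 CPM, so libraries with the same number did not all match between tissues. Arntl, the gene of Bmal1, was counted in every tissue of both genotypes, with liver medians of 7.06 CPM in flox and 8.40 CPM in iKO, and a count over the whole gene checks no label here. Values are given with all libraries first and then without the 11 and without their kidney counterparts, which carry an identical genotype, time and number. Leaving them out was chosen after the data were seen, and it leaves 16 flox and 9 iKO libraries with no iKO library at ZT22. Hepatocyte markers were higher in liver for 10 of 10 genes and proximal tubule markers were higher in kidney for 12 of 12 in the fit of all tissues, as the tissue labels say.

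Liver and kidney each expressed these genes, in different proportions, and WAT held little of 5 of them. Levels of different genes are compared per length, as CPM per kilobase of the gene (RPKM), in the 18 flox libraries of a tissue. In liver, Cyp4a10 ranged from 4.14 over a median of 73.0 to 140 RPKM, and Cyp4a12a from 1.41 over 47.2 to 171 RPKM. Cyp4a14 followed with 0.440, 21.02 and 96.9 RPKM, and Cyp4a12b with 1.28, 16.3 and 53.3 RPKM as lowest, median and highest. These 4 genes overlapped widely, so their order in liver rests on medians within each other's range. Cyp4a32 (1.32, 5.95 and 17.5 RPKM) and Cyp4a31 (0.686, 1.34 and 32.7 RPKM) came last, and they too overlapped with each other.

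Kidney had another order. Cyp4a10 led there with 83.8, 185 and 584 RPKM, and Cyp4a31 was next with 86.1, 136 and 258 RPKM. Cyp4a14 ran from 4.09 over 45.3 to 504 RPKM, Cyp4a12a from 0.795 over 23.3 to 166 RPKM and Cyp4a12b from 1.84 over 4.63 to 15.2 RPKM. Cyp4a32 was lowest at 0.282, 0.852 and 1.92 RPKM, and its range touched only the lower ends of Cyp4a12a and Cyp4a12b. In summed CPM over Cyp4a10, Cyp4a31 and Cyp4a32, Cyp4a31 made up a median of 44.3% in flox kidney and of 2.91% in flox liver.

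**Figure D1:**
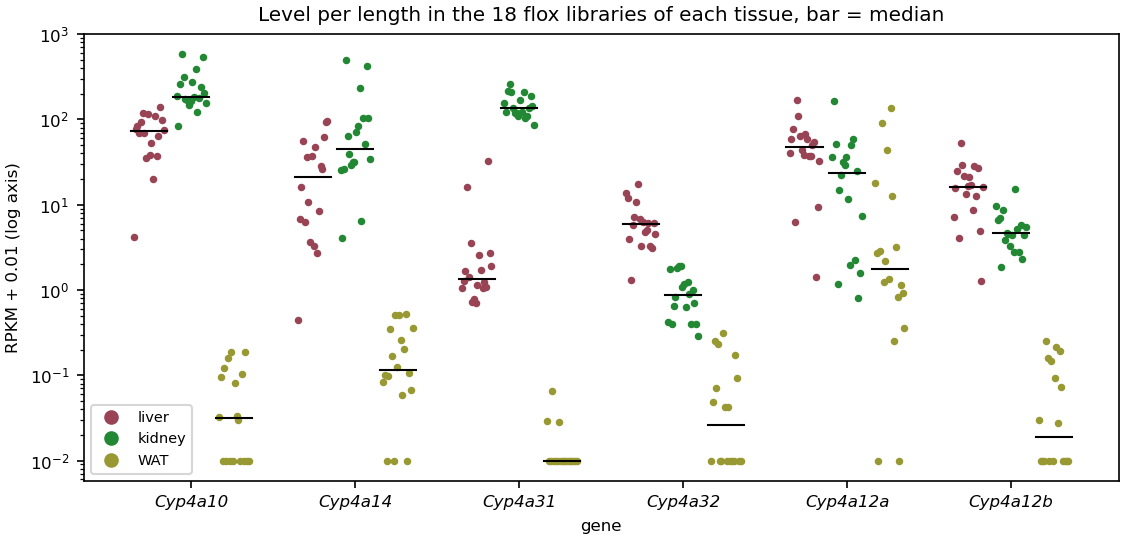
Level of each Cyp4a gene in flox liver, kidney and WAT as RPKM + 0.01 on a log axis, 1 point per library (18 per tissue) with a bar at the median. Cyp4a31 sits near the level of Cyp4a10 in kidney (medians 136 and 185 RPKM) and far under it in liver (1.34 and 73.0 RPKM), and in WAT 5 of the genes lie close to 0.

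The tissues were compared in flox in 1 fit of the libraries of all tissues with edgeR's quasi-likelihood test and Benjamini-Hochberg adjustment over 22789 genes, where a gene is called at an adjusted p under 0.05. Between liver and kidney 5 of the 6 Cyp4a genes were called, which is read against 62.5% of all genes called, with a median difference over all genes of −0.06. Cyp4a31 was lower in liver by 5.22 on the log2 scale (liver minus kidney −5.22, SE 0.33, adjusted p = 3.16e-22). In the opposite direction, Cyp4a32 was higher in liver by 3.68 (SE 0.43, adjusted p = 7.04e-12). Thus the close relatives of Cyp4a10 differed in opposite directions between these organs. The Cyp4a12 genes were both higher in liver, Cyp4a12a by 2.11 (SE 0.74, adjusted p = 0.0099) and Cyp4a12b by 2.54 (SE 0.50, adjusted p = 7.45e-06). Cyp4a14 had a difference of −0.82 (SE 0.46, adjusted p = 0.118). Cyp4a10 was called lower in liver at −0.89 (SE 0.40, adjusted p = 0.0463), but it was not called in 4 of the alternative fits, in which its adjusted p ran from 0.0560 to 0.0795. The WAT libraries were of mixed make-up. In flox WAT, 7 epididymis genes summed to 1.25 to 43727 CPM per library and adipocyte markers to 1422 to 72259 CPM. The contrasts with WAT are thus not with adipose tissue alone, and the part of this was not tested. Against WAT all 6 were called higher in liver, where 74.2% of all genes were called and 29.1% higher. All 6 were also called higher in kidney, where 63.5% were called and 25.1% higher, but with the replicate number as a block Cyp4a12a was not, at 1.501 (adjusted p = 0.077, against 0.0113 to 0.0487 in its other alternatives).

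In liver, Cyp4a14, Cyp4a31 and Cyp4a10 had the largest positive differences of iKO minus flox. The log2 difference of iKO minus flox, as a mean of the 6 times, was 2.95 for Cyp4a14 (SE 0.55, a 7.75-fold difference), 2.602 for Cyp4a31 (SE 0.36, 6.07-fold) and 1.78 for Cyp4a10 (SE 0.47, 3.44-fold). It was 1.04 for Cyp4a32 (SE 0.42), −0.20 for Cyp4a12a (SE 0.59) and −0.07 for Cyp4a12b (SE 0.60). The first 3 of the 6 were called higher, where 1.09% of 16582 genes were called higher and 2.64% in either direction. Since the genes were chosen from this contrast, nothing is read from that count and no p is given for it. Liver libraries are bulk tissue, in which fewer cells of a type and less RNA per cell cannot be told apart.

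Cyp4a14, a fatty acid omega-hydroxylase and classical PPAR alpha target, showed the widest range of the 6 in liver as a ratio of highest to lowest. At ZT2 its level was 1.14, 17.9 and 42.1 CPM in flox against 967, 37.2 and 1230.2 CPM in iKO, in the order of the libraries' numbers 1 to 3 here and in what follows. At ZT6 it was 144, 16.2 and 93.5 CPM in flox against 663, 586 and 700.1 CPM in iKO. The groups overlapped at ZT2 only through the library iKO ZT2 2, and at ZT6 they did not overlap. At ZT10 flox had 28.3, 9.43 and 96.8 CPM and iKO 767, 582 and 235 CPM. At ZT14 flox had 8.41, 125 and 7.10 CPM and iKO 248, 216 and 2351 CPM, and at ZT18 flox had 21.6, 73.5 and 67.3 CPM and iKO 513, 563 and 1038 CPM. All iKO libraries of these 3 times lay above all flox libraries, by the narrowest margin at ZT14. ZT22 was the exception, with 163, 245 and 252 CPM in flox against 4.52, 224 and 101 CPM in iKO. There the iKO libraries lay mostly below flox, and all 3 of them are among those that stood apart.

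Cyp4a31, the relative of Cyp4a10 with a low liver level, separated the genotypes at the most times. At ZT2 it was 2.65, 3.21 and 4.15 CPM in flox against 47.7, 12.0 and 57.4 CPM in iKO. At ZT10 it was 1.77, 1.93 and 1.72 CPM in flox against 33.4, 28.7 and 11.2 CPM in iKO. Flox libraries were close together at both times and every iKO library was well above them. At ZT14 flox had 2.83, 6.46 and 4.26 CPM and iKO 25.8, 9.44 and 34.8 CPM, and at ZT18 flox had 2.63, 3.12 and 2.67 CPM and iKO 18.4, 93.6 and 21.95 CPM. At ZT6 flox had 39.9, 3.52 and 9.01 CPM and iKO 173, 50.5 and 68.9 CPM, and at ZT22 flox had 82.0, 6.84 and 4.71 CPM and iKO 4.10, 47.4 and 92.7 CPM. The groups overlapped at ZT22 alone. The flox values of 39.9 and 82.0 CPM, the highest of all flox liver libraries for this gene, belong to the 2 flox libraries that stood apart. Outside the 11 the median was 4.71 CPM over both genotypes, and within the 11 it was 47.4 CPM. Since 9 of the 11 were iKO and most of the others flox, these medians carry the genotype difference as well. Among iKO libraries alone the values were 11.2 to 68.9 CPM outside the 11 and 4.10 to 173 CPM within.

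Cyp4a10, the most abundant of the trio in liver and a PPAR alpha target, spread more widely within iKO. At ZT2 it was 8.73, 165 and 176 CPM in flox against 925, 149 and 1269 CPM in iKO, and at ZT10 145, 75.4 and 241 CPM against 1042, 541 and 595 CPM. At ZT6 it was 148, 198 and 251 CPM in flox against 800 (799.97), 255 and 1257 CPM in iKO. The genotypes did not overlap at ZT6 and ZT10, at ZT6 by a narrow margin. At ZT14 flox had 80.6, 113 and 42.5 CPM and iKO 119, 61.9 and 2074 CPM, and at ZT18 flox had 229, 79.1 and 134 CPM and iKO 124, 637 and 1821 CPM. At ZT22 flox had 295, 206 and 160 (159.7) CPM and iKO 27.2, 160 (159.9) and 112 CPM. From ZT14 on the genotypes overlapped, and at ZT14 and ZT18 the highest iKO library was the only one outside the 11.

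Cyp4a32 was at 20.8, 18.4 and 6.03 CPM in flox and 58.8, 89.5 and 125 CPM in iKO at ZT2, the time of its highest iKO levels. At ZT10 it was at 16.3, 26.9 and 10.4 CPM in flox and 34.7, 39.7 and 32.6 CPM in iKO. No flox library reached an iKO library at these times, at which no library stood apart. At ZT6, ZT14 and ZT18 the only iKO library outside the 11 had 79.3, 40.0 and 36.4 CPM, above all 9 flox libraries of those times, whose highest value was 10.95 CPM. The other 6 iKO libraries of those times had 2.74 to 13.9 CPM, within or near the flox range. At ZT22 flox had 4.70, 9.41 and 7.02 CPM and iKO had 4.84, 2.45 and 4.61 CPM. Within the 11 the median of Cyp4a32 was 4.61 CPM, and outside it was 16.3 CPM over both genotypes. The pooled median of Cyp4a31 was instead higher within the 11, most of which were iKO.

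**Figure D2:**
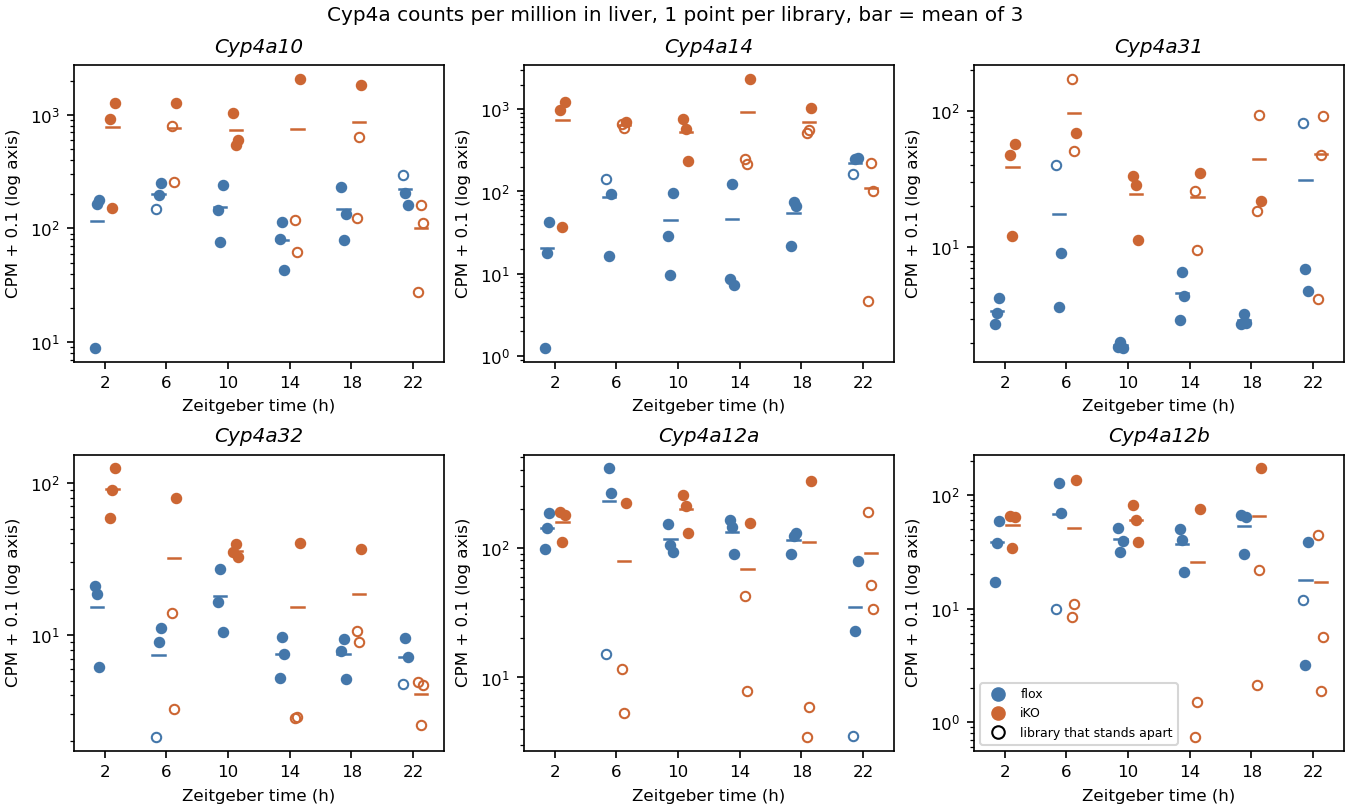
Liver level of each Cyp4a gene by zeitgeber time as CPM + 0.1 on a log axis, 1 point per library, flox in blue and iKO in orange, bars at the mean of 3 and open symbols for libraries that stand apart. Cyp4a31 is higher in every iKO library than in every flox library at 5 of the 6 times, and at ZT22 all iKO points are open symbols.

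Complete separation of 3 iKO above 3 flox libraries was thus seen at 5 of the 6 times for Cyp4a31, at 4 for Cyp4a14 and at 2 each for Cyp4a10 and Cyp4a32. Among all genes tested, iKO lay wholly above flox for 12.6% at ZT2 and 3.37% at ZT6, for 10.9% at ZT10 and 17.2% at ZT14, and for 14% at ZT18 and 2.83% at ZT22. At single times edgeR's quasi-likelihood test called 0 of the 36 pairs of Cyp4a gene and time in liver. Beside this, 0.0% of all genes were called at ZT2, ZT6, ZT10, ZT14 and ZT22 and 0.0362% at ZT18. At an unadjusted p under 0.05, 13 of the 36 pairs passed, beside 9.51% of the pairs of all genes, and DESeq2 called 7, beside 1.98%. For all genes in liver the common biological coefficient of variation was 0.514. These single-time values describe the contrast the genes were chosen from.

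Leaving out the libraries that stood apart also leaves out ZT22, so its averages cover the 5 times ZT2 to ZT18. Outside the 11, Cyp4a14 ranged from 1.14 over a median of 35.2 to 252 CPM in 16 flox libraries and from 37.2 over 767 to 2351 CPM in 9 iKO libraries. Cyp4a10 ranged from 8.73 over 152 to 251 CPM in flox and from 149 over 1042 to 2074 CPM in iKO. The lowest iKO library of both genes was iKO ZT2 2. It alone of the 9 lay inside the flox range for Cyp4a10, and for Cyp4a14 iKO ZT10 3, at 235 CPM, lay inside it as well. With all libraries, the mean difference over those 5 times was 3.799 for Cyp4a14, 2.97 for Cyp4a31, 2.39 for Cyp4a10 and 1.45 for Cyp4a32, values added after the data were seen. Over the same times without the 11 it was 4.37 for Cyp4a14 (SE 0.78), 3.21 for Cyp4a31 (SE 0.26), 3.05 for Cyp4a10 (SE 0.46) and 2.15 for Cyp4a32 (SE 0.20). These 4 were called higher, where 3.12% of all genes were called higher and 7.03% in either direction, and nothing is read from this count either. At single times without the 11, Cyp4a31 was called higher at ZT2, ZT10, ZT14 and ZT18 and Cyp4a32 at ZT2, ZT14 and ZT18, so 7 pairs of gene and time. At ZT14 and ZT18, which hold 4 of the 7, only 1 iKO library was left, number 3, and it was assumed to vary like the other groups. Of all genes 0.152% were called at ZT2 and 0.0117% at ZT6, while 0.369% were called at ZT10, with 0.709% at ZT14 and 0.34% at ZT18. Without the 2 Xist numbers the differences were 3.02 for Cyp4a14, 2.52 for Cyp4a31 and 1.86 for Cyp4a10, and Cyp4a10 was no longer called. Over the 36 fits that left out 1 library each, the difference ran from 1.164 to 1.88 for Cyp4a10, from 2.52 to 3.34 for Cyp4a14, from 2.46 to 2.91 for Cyp4a31 and from 0.52 to 1.13 for Cyp4a32. It was smallest for Cyp4a10, Cyp4a14 and Cyp4a32 without iKO ZT14 3. Cyp4a10 lost its call in 22 of those fits, 13 of them with a flox library left out and 9 with an iKO library.

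Sums over the sets that may share reads do not depend on how such reads were divided within a set. The Cyp4a10, Cyp4a31 and Cyp4a32 sum ran from 32.2 over a median of 179 to 382 CPM in the 18 flox libraries and from 36.2 over 624 to 2149 CPM in the 18 iKO libraries. Together with Cyp4a14 the sum ran from 33.4 over 228 to 545 CPM in flox and from 40.7 over 1043 to 4500 CPM in iKO. The genotypes overlapped in both sums, and the upper part of the iKO range had no flox library in it. Cyp4a10 supplied a median of 90.0% of the sum of 3 in flox and 84.8% in iKO, and Cyp4a31 supplied 2.91% and 8.11%.

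The Cyp4a12 pair, the male enzyme Cyp4a12a and its near copy, differed between the libraries that stood apart and the others, and overlapped between the genotypes. In liver Cyp4a12a ran from 3.41 over a median of 114 to 414 CPM in flox and from 3.35 over 120 to 326 CPM in iKO. Its average difference was −0.20 (SE 0.59) with all libraries and 0.29 without the 11, and that of Cyp4a12b was −0.07 (SE 0.60) and 0.73, so both changed sign and neither was called. Over ZT2 to ZT18 with all libraries the differences were −0.46 and −0.05. Within the 11 the Cyp4a12a median was 11.5 CPM, against 144 CPM in the other 25, and the Cyp4a12b median was 8.38 against 51.6 CPM. Cyp4a12a lay under 60 CPM in 11 liver libraries, 10 of which were among the 11 that stood apart, with 51.9 CPM the highest below that line and 78.7 CPM the lowest above it. The remaining low library was flox ZT22 2 at 22.9 CPM, and the library that stood apart without a low level was iKO ZT22 1 at 189 CPM. Male-biased liver genes, a list without Cyp4a12a, had means of 2.66 to 7.24 log2 CPM in the 11 and of 5.43 to 8.57 in the others, and female-biased genes averaged 1.996 against −0.26. Whether cell make-up, sex or handling took part in these levels was not tested.

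In kidney, the genotype averages were not the source of the choice of genes and were tested. Kidney libraries carry the same genotypes, times and numbers as the liver libraries. The same numbers held Xist in both organs. Where both organs came from the same mice, the kidney values are not independent of the choice made in liver. None of the 6 was called by edgeR's quasi-likelihood test with Benjamini-Hochberg adjustment, where 0.164% of 17630 genes were called. Of all genes 0.0737% were called higher. Of the 6, 2 passed an unadjusted p under 0.05, beside 9.43% of all genes, and DESeq2 called 1, beside 1.15%. Cyp4a14 had the largest difference, 1.28 on the log2 scale (SE 0.38, 2.43-fold higher in iKO, adjusted p = 0.178), and Cyp4a10 the next largest positive one, 0.44 (SE 0.21, adjusted p = 0.524). The differences were 0.20 for Cyp4a31 (SE 0.15, adjusted p = 0.747), 0.13 for Cyp4a32 (SE 0.29, adjusted p = 0.936), −0.63 for Cyp4a12a (SE 0.68, adjusted p = 0.846) and −0.48 for Cyp4a12b (SE 0.34, adjusted p = 0.726). DESeq2 gave 1.29 for Cyp4a14 with an adjusted p of 0.0178, and leaving out the single library flox ZT6 1 gave 1.58 with an adjusted p of 0.0401 in edgeR. Over all its alternatives the adjusted p of Cyp4a14 ran from 0.0178 to 0.328. Without the 11 numbers none was called, beside 0.422% of all genes, and Cyp4a14 stood at 1.42, against 1.67 over the same 5 times with all libraries.

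Cyp4a14 in kidney showed where that spread lies. At ZT2 it was 65.9, 10.6 and 68.4 CPM in flox and 214, 277 and 252 CPM in iKO, and at ZT10 76.0, 82.8 and 81.5 CPM in flox and 88.9, 71.7 and 112 CPM in iKO. At ZT6 it was 1312, 166 and 102 CPM in flox and 1256, 1796 and 124 CPM in iKO. The iKO libraries lay above flox at ZT2 and mixed with it at ZT6 and ZT10. At ZT14 flox had 183, 220 (220.01) and 601 CPM and iKO 1021, 1284 and 1341 CPM, and at ZT18 flox had 16.8, 268 and 134 CPM and iKO 1027, 2074 and 894 CPM. At ZT22 flox had 1103, 272 and 88.1 CPM and iKO 159, 512 and 266 CPM. The highest 2 flox values, 1312 and 1103 CPM, belong to the numbers flox ZT6 1 and ZT22 1, whose liver libraries stood apart. Over both genotypes the kidney median of Cyp4a14 was 1103 CPM in the 11 and 124 CPM in the other 25. Interferon-stimulated genes averaged 5.78 log2 CPM in the same 11 kidney libraries against 2.54, proximal tubule markers 8.88 against 9.99 and androgen-responsive kidney genes 5.27 against 7.34. The part of these in the Cyp4a14 level was not tested. Outside the 11, Cyp4a14 ran from 10.6 over 94.9 to 601 CPM in flox and from 71.7 over 214 to 1341 CPM in iKO.

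At single times in kidney, Cyp4a14 separated iKO wholly above flox at 3 times, ZT2, ZT14 and ZT18, and Cyp4a10 and Cyp4a31 did so at 1 time each. Of all genes, 8.71% did so at ZT2 and 4.89% at ZT6, 6.17% at ZT10 and 7.29% at ZT14, and 10.2% at ZT18 and 4.87% at ZT22. The Cyp4a14 difference was largest at ZT18, 3.20 on the log2 scale (SE 0.99, 9.18-fold, adjusted p = 0.216 by edgeR's quasi-likelihood test). It was 2.23 at ZT2 (SE 0.96, adjusted p = 0.733) and 1.73 at ZT14 (SE 0.94, adjusted p = 0.737). Cyp4a10 at ZT18 was 259, 381 and 503 CPM in flox and 880, 1694 and 1114 CPM in iKO, a difference of 1.61 (SE 0.53, adjusted p = 0.225). None of the 36 pairs of Cyp4a gene and time was called by edgeR, beside 0.0% of all genes at ZT2, ZT6, ZT10, ZT14 and ZT18 and 0.0113% at ZT22. An unadjusted p under 0.05 was met by 3 of the 36, beside 7.56% of the pairs of all genes, and DESeq2 called 1, beside 0.208%. This was Cyp4a14 at ZT18 with an adjusted p of 0.0283, where the other alternatives gave 0.213 to 1.

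**Figure D3:**
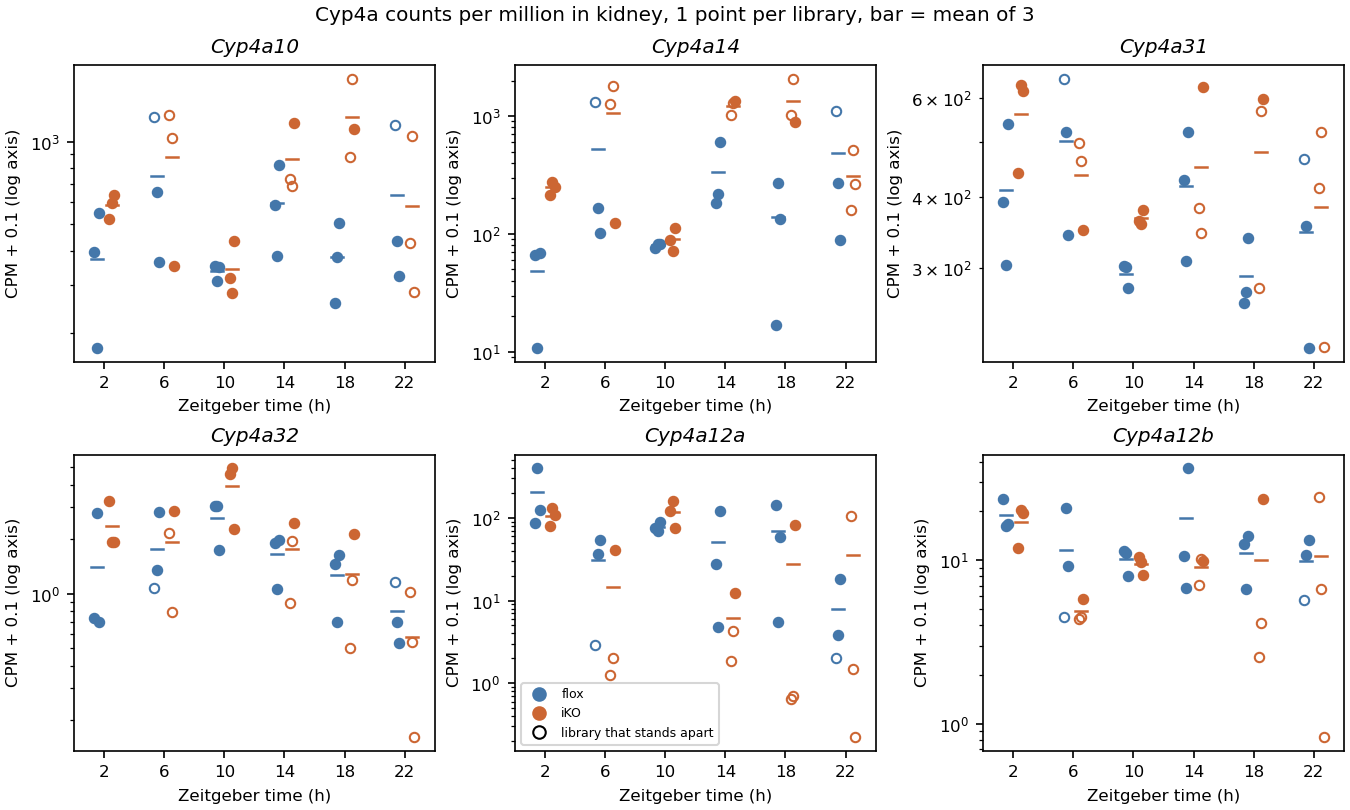
Kidney level of each Cyp4a gene by zeitgeber time as CPM + 0.1 on a log axis, 1 point per library, flox in blue and iKO in orange, bars at the mean of 3 and open symbols for libraries of the numbers that stand apart. The open symbols have a median Cyp4a14 level of 1103 CPM (159 to 2074 CPM), against 124 CPM for the filled ones, which reach 1341 CPM, and a median Cyp4a12a level of 1.73 CPM against 75.7 CPM.

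The remaining kidney genes varied in other ways. Cyp4a31 was the steadiest, from 216 over a median of 340 to 648 CPM in flox and from 217 over 427 to 631 CPM in iKO, so the genotypes shared nearly the same narrow range. Cyp4a10 ran from 177 over 391 to 1232 CPM in flox and from 281 over 664 to 1694 CPM in iKO. Cyp4a32 was low, from 0.432 over 1.31 to 2.95 CPM in flox and from 0.0606 over 1.84 to 4.84 CPM in iKO. Its highest 2 values in each genotype, 2.95 and 2.95 CPM in flox and 4.46 and 4.84 CPM in iKO, were all at ZT10. The Cyp4a10, Cyp4a31 and Cyp4a32 sum had medians of 749.6 CPM in flox and 1135 CPM in iKO.

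Cyp4a12a had the widest range of the 6 in kidney as a ratio of highest to lowest, the organ in which it is known to depend on androgen. It ran from 1.93 over a median of 56.4 to 402 CPM in flox and from 0.121 over 26.3 to 160 (159.6) CPM in iKO. The lowest 2 iKO values, 0.121 and 0.552 CPM, belong to iKO ZT22 3 and iKO ZT18 1, whose kidney libraries held Xist at 305 and 211 CPM. Without these 2 numbers the kidney genotype difference of Cyp4a12a was −0.44, against −0.63 with all libraries and −1.22 over ZT2 to ZT18. With single libraries left out it ran from −1.59 without iKO ZT18 3 to −0.34 without flox ZT14 3. Cyp4a12a was under 10 CPM in 13 libraries, 10 of them among the 11 and the others flox ZT14 2 at 4.69 CPM, flox ZT18 2 at 5.35 CPM and flox ZT22 2 at 3.78 CPM. As in liver, iKO ZT22 1 was the library of the 11 without a low level, at 104 CPM. At ZT2, where no library stood apart, it was 87.7, 402 and 123 CPM in flox and 80.1, 131 and 107.9 CPM in iKO, with the genotypes mixed. At ZT10 it was 75.7, 69.8 and 88.0 CPM in flox and 121, 160 and 75.7 CPM in iKO, again overlapping. Cyp4a12b was lower and less spread, from 4.41 over 11.1 to 36.5 CPM in flox and from 0.727 over 8.83 to 24.2 CPM in iKO. Outside the 11, Cyp4a12a supplied a median of 80.0% of the sum of the pair in flox and 87.2% in iKO, and in the 9 iKO libraries within the 11 it supplied 20.0%.

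**Figure D4:**
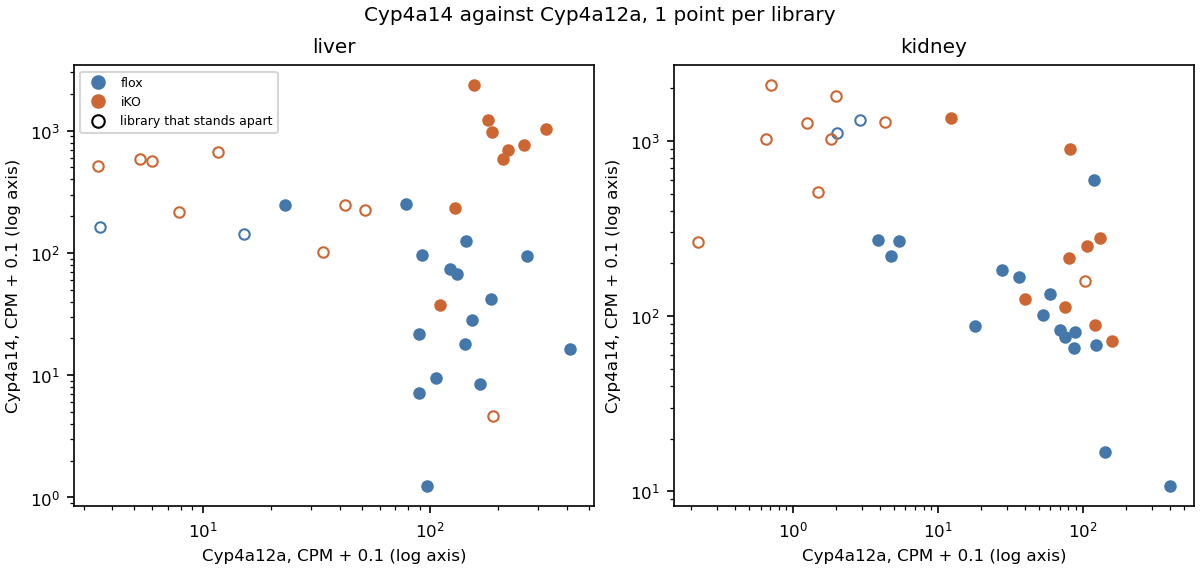
Cyp4a14 against Cyp4a12a in each library of liver and kidney, both as CPM + 0.1 on log axes, flox in blue and iKO in orange, open symbols for libraries that stand apart. In kidney most open symbols lie at high Cyp4a14 and low Cyp4a12a, with those of iKO ZT22 among the exceptions, and over the other 25 libraries the correlation is −0.42.

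The time of day was tested in each genotype with a 24 h cosine. None of the 6 genes was called rhythmic in liver, where 0.772% of genes were called in flox and 0.0844% in iKO, and none passed an unadjusted p under 0.05 in either genotype. The nearest were Cyp4a31 in flox, with an amplitude (log2 distance from mean to peak) of 1.03 (SE 0.43, peak at 0.52 h, adjusted p = 0.365), which was 0.59 without flox ZT22 1 and 0.21 without the 11 numbers, and Cyp4a32 in iKO, with 1.13 (SE 0.50, peak at 5.09 h, adjusted p = 0.466), which was 1.83 without iKO ZT18 3. In kidney none was called either, beside 5.07% of genes in flox and 4.22% in iKO. Cyp4a32 came nearest there, with an amplitude of 1.01 in iKO (SE 0.32, peak at 8.26 h, adjusted p = 0.116) and 0.70 in flox (SE 0.31, peak at 9.05 h, adjusted p = 0.304). In kidney 1 of the 12 pairs of gene and genotype met an unadjusted p under 0.05, beside 22.4% of the pairs of all genes. DESeq2 called none of the 6 genes rhythmic in either tissue. Of all genes it called 476 in flox and 213 in iKO of 16582 in liver, and 1722 and 1579 of 17630 in kidney. With iKO ZT6 2 left out, Cyp4a32 in iKO kidney was called at 1.15 with an adjusted p of 0.0440, and without the 11 numbers its amplitude was 0.48 with an adjusted p of 0.770. With time as a factor in place of the cosine, Cyp4a32 was called in iKO liver, beside 11.6% of all genes, and Cyp4a14 and Cyp4a32 in iKO kidney, beside 40.0%. In iKO no number stood apart at ZT2 and ZT10, and every number did at ZT22. Time and standing apart therefore cannot be told apart in the iKO tests with all libraries, with the cosine or with time as a factor. A joint test of genotype by time called 0.0% of genes in either tissue, and the lowest adjusted p of a Cyp4a gene was 0.760 in liver and 0.631 in kidney, both for Cyp4a14. A change of rhythm between genotypes was called for 0.0% of genes in both tissues. No Cyp4a gene met an unadjusted p under 0.05 in these joint tests or in the change of rhythm, and DESeq2 called none of them. Of all genes DESeq2 called 43 in liver and 55 in kidney for genotype by time, and 3 and 0 for a change of rhythm.

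In WAT, levels of Cyp4a10, Cyp4a14, Cyp4a31, Cyp4a32 and Cyp4a12b did not exceed 0.724, 3.61, 0.217, 0.543 and 0.583 CPM. Cyp4a31 was at 0 in 15 of 18 flox and 13 of 18 iKO libraries, and Cyp4a14 in 3 of 18 of each genotype. Cyp4a12a was different. It ran from 0 over a median of 4.27 to 331 CPM in flox and from 0 over 1.19 to 13.3 CPM in iKO, and 5 flox and 1 iKO libraries had 10 CPM or more. The high ones were flox ZT14 1 at 331 CPM, flox ZT6 2 at 220 (220.2) CPM, flox ZT10 2 at 107 CPM, flox ZT2 1 at 43.6 CPM, flox ZT14 2 at 31.0 CPM and iKO ZT2 2 at 13.3 CPM. They were scattered over 4 times. A list of 7 epididymis genes had summed levels of 20302 to 43727 CPM in those 6 libraries and of 0.869 to 41422 CPM in the other 30, and the 5 libraries with no Cyp4a12a count had 0.869 to 18.05 CPM. Adipocyte markers summed to 1710 to 24362 CPM in the 6 and to 304 to 72762 CPM in the 30. Their part in the Cyp4a12a level was not tested. Averaged over the day, Cyp4a12a was −3.02 in iKO against flox (SE 0.90, adjusted p = 0.99997 in edgeR). Of the 6 genes, 3 passed the filter on low counts, and none of these was called, beside 0.0% of 21402 genes in edgeR. An unadjusted p under 0.05 was met by 1 of the 3. Of all genes, 805 met an unadjusted p under 0.05 and DESeq2 called 25.

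Correlations of log2 CPM were computed for 60 pairings over the 25 libraries outside the 11 and, separately, within the 11, and the liver values are descriptions, given without p, because the genes were chosen from a liver difference. The libraries pool both genotypes and all times, and the permutations ignore these groups, so differences that 2 genes share between groups enter both r and p. In liver Cyp4a10 and Cyp4a14 had r = 0.90 (rho 0.84), and 0.85 without the 2 libraries farthest from the median. Cyp4a14 and Cyp4a31 had r = 0.80, Cyp4a31 and Cyp4a32 0.76, and Cyp4a12a and Cyp4a12b 0.89. These liver values are those outside the 11. Within the 11, Cyp4a10 and Cyp4a14 had r = 0.73, and Cyp4a14 and Cyp4a31 0.58 (−0.20 without the 2 farthest). There Cyp4a31 and Cyp4a32 had 0.22, and Cyp4a12a and Cyp4a12b 0.12 (rho −0.18). In kidney, outside the 11 and over both genotypes, Cyp4a10 and Cyp4a14 had r = 0.83 (permutation p = 1e-05, the smallest the permutations can give, adjusted 0.00012). Their rho was 0.78 (permutation p = 1e-05, adjusted 0.0002), and r was 0.74 without the 2 farthest. Cyp4a10 and Cyp4a31 had r = 0.83 (permutation p = 1e-05, adjusted 0.00012) and rho = 0.76 (p = 4e-05, adjusted 0.00048), with r = 0.81 without the 2 farthest. Cyp4a12a and Cyp4a12b had r = 0.54 there (permutation p = 0.00504, adjusted 0.0216) and rho = 0.53 (p = 0.00722, adjusted 0.0361), with r = 0.50 without the 2 farthest. Cyp4a14 and Cyp4a12a had r = −0.42 (permutation p = 0.0369, adjusted 0.0923) and rho = −0.33 (p = 0.107, adjusted 0.230), with r = −0.21 without the 2 farthest. The libraries of a pairing share depth, and those of the near copies may share reads, whose part was not tested.

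The genes with the most similar pattern were sought over the 36 libraries of a tissue, and their r over the 25 outside the 11 is given after it. In liver Cyp4a10 was most like Retsat (r = 0.83, then 0.83), which saturates retinol, Hsd17b11 (0.80, then 0.82), an enzyme of lipid droplets, and Acot1 (0.78, then 0.77), an acyl-CoA thioesterase. Cyp4a14 was most like Acadl (0.74, then 0.81) and Hadhb (0.73, then 0.87), enzymes of mitochondrial beta-oxidation, and Arl4a (0.72, then 0.82), a small GTPase. Cyp4a32 was most like Dcaf8 (0.92, then 0.91), Brap (0.92, then 0.86) and Slc27a2 (0.91, then 0.84), a fatty acid transporter and acyl-CoA synthetase, and Cyp4a31 was most like Tmed5 (0.86, then 0.85), Tlcd4 (0.85, then 0.93) and Ccni (0.78, then 0.76). For Cyp4a12a they were Ugt2b5 (0.93, then 0.56), Nr1h4 (0.93, then 0.69) and Gstp1 (0.93, then 0.40), a UDP-glucuronosyltransferase, the bile acid receptor and a glutathione transferase. For Cyp4a12b they were Slc15a5 (0.91, then 0.64) and the major urinary proteins Mup21 (0.90, then 0.76) and Mup20 (0.88, then 0.69). For the Cyp4a12 pair each of these r values was lower outside the 11.

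In kidney the nearest genes of Cyp4a10 were Sult1d1 (0.74, then 0.71), Apoc3 (0.71, then 0.56) and Acot3 (0.71, then 0.62). For Cyp4a14 they were the glutathione transferases Gsta2 (0.80, then 0.58) and Gsto1 (0.79, then 0.64) and Ugt1a10 (0.79, then 0.54). Cyp4a31 was most like Pttg1ip (0.80, then 0.80), Tmigd1 (0.77, then 0.78) and Rab21 (0.76, then 0.82). Genes most like Cyp4a32 included Acad10 (0.88, then 0.90), an acyl-CoA dehydrogenase, and Cpt1a (0.87, then 0.89), which starts fatty acid entry into mitochondria. Cyp4a12a was most like Anxa13 (0.95, then 0.85), Etv1 (0.94, then 0.85) and Azgp1 (0.94, then 0.93), and Cyp4a12b like Man1a (0.84, then 0.49), Timd2 (0.83, then 0.54) and Cd302 (0.82, then 0.62).

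Beside the Cyp4a genes, the genes of the same route were counted in the liver average. The gene lists were written with earlier results of these data known, and the contrast is the one the Cyp4a genes were chosen from. The counts and values are therefore descriptions and no independent test. Of 36 PPAR alpha target genes outside the family that were tested, 5 rose in iKO and none fell, beside 1.09% of all genes called higher, with a median difference of 0.44 against 0.00 for all genes. Among them, Vnn1, a pantetheinase, rose by 1.75 (SE 0.34, adjusted p = 0.0074), and the beta-oxidation enzymes Hadha and Acadl rose by 0.60 (adjusted p = 0.030) and 0.42 (adjusted p = 0.028). Cidea, a lipid droplet protein, rose by 4.22 (SE 1.09, adjusted p = 0.036), but its adjusted p was 0.090 without the 11 numbers. Without the 11 the count was 25 rising and none falling of 37, beside 3.12% of all genes called higher, with a median of 0.83 against −0.05. The receptor gene itself, Ppara, had 0.53 with an adjusted p of 0.087, and 0.62 with an adjusted p of 0.038 without the 11. Pparg, the related receptor of fat storage, rose by 0.83 (adjusted p = 0.021).

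Later steps of the route were counted likewise. Of 29 tested genes of peroxisomal oxidation 1 rose and 1 fell, beside 2.64% of all genes called in either direction. Crat, carnitine acetyltransferase, rose by 0.97 (SE 0.17, adjusted p = 0.0047). The median was 0.18, and without the 11 numbers 14 rose and 1 fell, beside 7.03% of all genes, Acaa1a, a peroxisomal thiolase, among the risers at 0.85 (adjusted p = 6e-05). Of 11 tested genes for electron donors and the oxidation of omega-hydroxy acids none was called. Aldh3a2, a fatty aldehyde dehydrogenase, had 0.38 (adjusted p = 0.12), Cyb5r3, an electron donor, −0.71 (0.066) and Adh1, an alcohol dehydrogenase, −0.67 (0.12). Without the 11 numbers 1 of the 11 rose, Aldh3a2 at 0.90 (adjusted p = 0.0010), and 3 fell, beside the same 7.03%. Of 9 other CYP4 genes tested none was called, with a median of 0.09. None of 21 male-biased and none of 21 female-biased liver genes was called, with medians of −0.49 and 0.77 with all libraries and of 0.05 and −0.45 without the 11, so both medians turned sign.

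Levels of the PPAR alpha target list and the Cyp4a genes were also set against each other by library, a comparison chosen after the values were seen. In the 25 liver libraries outside the 11, r with the list mean was 0.89 for Cyp4a14, 0.83 for Cyp4a10, 0.81 for Cyp4a31 and 0.59 for Cyp4a32, and 0.16 for Cyp4a12a and 0.28 for Cyp4a12b. The rho there was 0.88, 0.72, 0.61 and 0.44 for Cyp4a14, Cyp4a10, Cyp4a31 and Cyp4a32. Within the 11, r was 0.14 for Cyp4a14, 0.65 for Cyp4a10, 0.68 for Cyp4a31 and 0.45 for Cyp4a32. It was −0.16 for Cyp4a12a and 0.34 for Cyp4a12b. With the male-biased list r outside the 11 was 0.72 for Cyp4a12a, 0.58 for Cyp4a12b and 0.52 for Cyp4a32. Their rho was 0.48, 0.23 and 0.58, and without the 2 farthest libraries r was 0.50, 0.14 and 0.52. Within the 11, r was 0.83, 0.40 and 0.13. In kidney 24 relations were computed, with permutations that again ignore genotype and time. Outside the 11, Cyp4a32 and the PPAR alpha targets had r = 0.68 (permutation p = 0.00023, adjusted 0.00184) and rho = 0.63 (p = 0.00087, adjusted 0.00856), with r = 0.61 without the 2 farthest libraries. For Cyp4a10 r was 0.51 (permutation p = 0.00911, adjusted 0.0360) and rho 0.35 (p = 0.0833, adjusted 0.222), and r was 0.25 without the 2 farthest libraries, so the relation rests on them. For Cyp4a14 r was 0.49 (permutation p = 0.0138, adjusted 0.0415) and rho 0.34 (p = 0.0983, adjusted 0.236), with r = 0.34 without the 2 farthest. With the androgen-responsive kidney genes, again outside the 11, Cyp4a12a had r = 0.71 (permutation p = 9e-05, adjusted 0.00108) and rho = 0.71 (p = 0.00019, adjusted 0.00456), with r = 0.68 without the 2 farthest. Cyp4a32 had r = 0.71 with that list (permutation p = 8e-05, adjusted 0.00108) and rho = 0.63 (p = 0.00107, adjusted 0.00856), with r = 0.56 without the 2 farthest. Cyp4a31 had r = 0.52 with that list (permutation p = 0.00703, adjusted 0.0360) and rho = 0.53 (p = 0.00663, adjusted 0.0398). For Cyp4a12b r was 0.29 (permutation p = 0.166, adjusted 0.363) and rho 0.22 (p = 0.285, adjusted 0.489). Within the 11, however, Cyp4a12b had r = 0.74 (permutation p = 0.0168, adjusted 0.0447) and rho = 0.76 (p = 0.00838, adjusted 0.0402), with r = 0.53 without the 2 farthest. There Cyp4a12a had r = 0.86 (permutation p = 0.00768, adjusted 0.0360) and rho = 0.60 (p = 0.0554, adjusted 0.166), with r = 0.46 without the 2 farthest. The other genes had r = 0.33 (Cyp4a31), 0.20 (Cyp4a32), −0.20 (Cyp4a10) and −0.61 (Cyp4a14) there, with adjusted permutation p from 0.125 to 0.678. The difference between the Cyp4a12 copies was not tested.

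In the kidney average none of the lists for PPAR alpha, its targets, peroxisomes, electron donors or other CYP4 enzymes held a called gene. Without the 11 numbers 7 of 38 PPAR alpha targets rose and none fell, beside 0.23% of all genes called higher, with a median of 0.43 against −0.01 for all genes. Pdk4, which holds back glucose oxidation, rose there by 2.70 (adjusted p = 0.00018), against 1.37 (adjusted p = 0.26) with all libraries. Of 29 peroxisomal genes 3 rose and none fell without the 11, and no other CYP4 gene was called.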

How the data were processed

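Per the labels' protocols, Trizol RNA went into NEBNext Ultra RNA libraries, read at 150 bp on an Illumina HiSeq X instrument. The authors deposited 1 table of raw read counts per gene for 36 libraries per tissue. HISAT2 2.0.4, DESeq2 1.16.1 and featureCounts 1.5.0-p3 were named, with GRCm38 (mm10), per the submitters' processing notes. Settings for strand and for reads with several matches were not given in the sources used here. Gene positions in the table differ from GENCODE M21 in GRCm38 for every Cyp4a gene, so positions printed are those of GENCODE, and the table's own build is not stated. Depth per library (rounded) was between 13875600 and 24414800 counts over the 3 tissues. Counts are not all independent molecules, and the tests cover counting error and spread together.

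Samples were grouped by tissue, genotype and time from the labels. CPM and RPKM were computed here from library totals and the table's gene lengths, and log2 CPM uses a prior count of 2. Low genes were removed per tissue by filterByExpr, with the 12 groups as design, and edgeR 4.0.16 was run after TMM scaling (R 4.3.3; estimateDisp, glmQLFit robust, glmQLFTest), with Benjamini-Hochberg adjustment over all genes tested. SE is the difference divided by the square root of F. Rhythm used a second fit with a 24 h cosine and sine per genotype, and 1 fit of the whole table compared the tissues. Permutation tests of correlations were two-sided and adjusted within their family. The scripts were tested on simulated counts. Alternatives were DESeq2 1.42.0, its size factors in edgeR, a block for the replicate number, no filter, time as a factor and each library left out. Leaving out the libraries that stood apart was chosen after seeing the data. Identities came from coding sequences aligned with MAFFT 7.526.

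The 6 genes and the gene lists (12 of pathways and 16 of markers, 415 entries, 2 symbols unmatched) were chosen with earlier results of these data known. Named are the 6 genes with Cyp4a29 and Cyp4a30b, up to 4 genes with the smallest p in each pathway list and comparison, and for likeness the 3 genes with the highest r with each Cyp4a gene among tested genes averaging at least 1 log2 CPM, predicted genes passed over. Some genes that this rule names are not reported here. Same-numbered flox and iKO libraries deviated together, at a correlation above 0.1, in 6 of 18 liver, 5 of 18 kidney and 10 of 18 WAT pairs, so the numbers were not taken to pair them.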

Additional observations from a re-analysis of the deposited data

How the results depend on the processing

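With the replicate number as a block, 3 Cyp4a genes were called in the liver average and 0 in the kidney average, as without it, while 796 genes in all were called in liver in place of 438. The block moved no other count of called Cyp4a genes in a genotype or rhythm contrast. In liver against kidney, a block of genotype, time and number left 4 Cyp4a genes called in place of 5, with Cyp4a10 at −0.91 (adjusted p = 0.0649), while against WAT all 12 calls were made with it and 11 with the replicate number alone as a block. Other counts of genes called in the liver average were 218 with no filter, 1199 without the 11 numbers, 159 without the 2 Xist numbers and 1609 with DESeq2, and in kidney 77 without the 11, 17 without the 2 Xist numbers and 203 with DESeq2, in place of 29. Leaving out 1 library each gave 208 to 3247 calls in liver, lowest without iKO ZT10 2 and highest without flox ZT6 1, and 6 to 125 in kidney, lowest without flox ZT6 3 and highest without flox ZT6 1. Rhythm calls over all genes ran from 60 to 205 (flox) and 4 to 50 (iKO) in liver and from 346 to 1185 and 170 to 1601 in kidney. DESeq2 called 1 Cyp4a gene in the kidney average, 7 pairs of gene and time in liver and 1 in kidney, in place of 0, and without the 11 numbers 7 pairs were called in liver, 4 of them with 1 iKO library. With time as a factor 1 Cyp4a gene was called in iKO liver (11.6% of all genes were) and 2 in iKO kidney (40.0%), in place of 0. In iKO, time cannot be told apart from which libraries stood apart. Leaving out 1 library each gave 2 to 3 called genes in the liver average, 0 to 1 in the kidney average and 0 to 1 for rhythm in iKO kidney. The direction turned for liver Cyp4a12a (0.29 without the 11 numbers, −1.10 to 0.064 over single libraries left out) and liver Cyp4a12b (0.73 without the 11, 0.10 without the 2 Xist numbers, −0.97 to 0.21), none of them called. It also turned for kidney Cyp4a32 (−0.044 to 0.31) and WAT Cyp4a10 (−1.06 to 0.52). In each case the cause was not tested. Low counts limit Cyp4a32 in kidney and all Cyp4a genes but Cyp4a12a in WAT.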

Other observations

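Cyp4a29, next to the cluster, and Cyp4a30b, within it, are the other protein-coding Cyp4a genes. Both had no count in any liver library and at most 0.158 CPM in kidney. In WAT, Cyp4a29 did not exceed 0.398 CPM, while Cyp4a30b ran from 0 over a median of 2.82 to 12.5 CPM in the 18 flox libraries and from 0 over 1.002 to 11.1 CPM in the 18 iKO libraries. Over all times the genotypes overlapped over nearly the whole range. The average difference of Cyp4a30b in WAT, iKO minus flox, was −1.94 (SE 0.70, adjusted p = 0.99997 by edgeR's quasi-likelihood test). It met an unadjusted p under 0.05, as did 805 of 21402 genes. In the 6 WAT libraries with the highest Cyp4a12a, in the order given for that gene, Cyp4a30b was at 10.5, 9.62, 12.5, 5.84, 4.90 and 3.49 CPM. All 6 lay above its median in flox.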
